A study of Rattus norvegicus with 24 samples.

Results

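Peripheral blood mononuclear cells (PBMC) of arthritic rats were compared after 34 days of needle stimulation (MS) and after 34 days of saline placebo (PLA). The members were chosen by title alone, as the 2 arrays labelled RAT_AP_34d against the 2 labelled RAT_PLA_34d, and they make up 4 of the 24 arrays of the series. Both groups are female Wistar rats of the same day of disease, in which arthritis (collagen-induced arthritis, CIA) had been raised with bovine type II collagen in Freund's adjuvant, so the controls carry the disease and the adjuvant too. MS rats, named AP (acupuncture) in the labels, were punctured every other day on both sides of the lower back and below the knee with a short needle that was twirled at the start of each session. PLA rats received sterile saline into the peritoneum as the placebo of the methotrexate (MTX) injections, so PLA is not a sham needle: the route, the site and the frequency of the intervention differ between the groups as well as the twirling. Blood was drawn under ether in MS, PLA and MTX. The other arthritic arm at 34 days, ANE, had isoflurane at sampling and no other therapy. Blood drawing was terminal, so each array is another rat, and with 2 rats a group an exact two-sided permutation test cannot give a p below 0.333. The age of the rats is not given in the sources used here.

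PBMC are the lymphocytes, natural killer cells and monocytes that stay on top of a density gradient, and platelets commonly come with them. Activated monocytes make the acute mediators of inflammation: interleukin 1 beta, the prostaglandin-forming enzyme cyclooxygenase 2, and chemokines, small secreted proteins that draw neutrophils (the Cxcl1 and Cxcl2 type) or activated T cells (the Cxcl10 and Cxcl11 type) into tissue. Many of these genes are targets of NF-kB, a transcription factor held back in resting cells by inhibitor proteins such as that of Nfkbia. In collagen-induced arthritis the same mediators take part in joint swelling.

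Levels are log2 values made by robust multi-array averaging (RMA), in which a difference of 1 is a 2-fold difference, and differences are MS minus PLA with the standard error (SE) of a limma fit over all 24 arrays. Of 31099 probe sets, 20690 passed the filter on dim signals and were tested, and 11057 genes are given by their brightest probe set. The 2 MS arrays were unlike each other. Their difference had an SD of 0.84 over probe sets and their correlation was 0.90, against 0.28 and 0.99 for the 2 PLA arrays. Of 10837 probe sets on which MS and PLA did not overlap, MS replicate 1 lay farther from the PLA mean than MS replicate 2 on 9848 (90.9%). The main genes and list medians below are therefore given for both MS arrays. T cell genes (Cd3e), monocyte genes (Cd14) and B cell genes (Ms4a1) were well above the dimmest signals on all 4 arrays, as the label PBMC requires, and so were platelet genes (Pf4).

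No probe set passed an adjusted p of 0.05 between MS and PLA (limma, Benjamini-Hochberg over 20690 probe sets, smallest adjusted p 0.144), although 4795 had an unadjusted p under 0.05. At the thresholds the study used, an unadjusted p under 0.05 with a fold change over 2, 1101 probe sets (5.32%) lay higher and 629 (3.04%) lower in MS. Over genes these were 620 (5.61%) higher and 412 (3.73%) lower, and the 2 MS arrays lay wholly below both PLA arrays for 36.7% of genes and wholly above them for 18.4%. The median difference over all genes was -0.22. Counts of list members below are counts at the study's thresholds, are read against these shares, and are not calls after adjustment. The study also removed genes called absent on any array compared, a step not applied here, so these are not the study's own counts. The adjusted p was 0.179 to 0.216 for list members with an unadjusted p under 0.05. Without MS replicate 1 only 26 probe sets (0.126%) lay higher and 31 (0.15%) lower at those thresholds, with none past the adjusted p, and without MS replicate 2 the adjusted p was passed by 8114 (39.2%).

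Chemokines that draw leukocytes held several of the genes lowest in MS relative to PLA. Of 18 measured chemokines 6 lay lower and 1 higher at the study's thresholds, with a median difference of -0.95 (-1.41 in MS replicate 1 and -0.64 in MS replicate 2), and 3 of the 6 passed without MS replicate 1. Cxcl2, a neutrophil attractant, was 9.23 and 9.30 in MS, against 12.11 and 12.05 in PLA. The 2 MS rats were as close to each other as the 2 PLA rats, and the difference was -2.81 ± 0.88 (SE), a 7.03-fold lower level. Cxcl1, the closely related neutrophil attractant, was 5.35 and 7.58 in MS and 10.22 and 8.86 in PLA (-3.08 ± 1.02). Both pairs of rats were more scattered for Cxcl1, and the groups still did not overlap. Cxcl10, induced by interferon gamma and attracting activated T cells, was 4.27 and 5.38 in MS, against 7.59 and 7.59 in PLA (-2.77 ± 0.72). Cxcl11, a ligand of the same receptor, was 4.22 and 4.32 in MS, against 6.43 and 5.72 in PLA (-1.81 ± 0.48). Ccl9 and Ccl3, attractants of monocytes and other leukocytes, differed by less: Ccl9 was 3.78 and 4.66 in MS and 6.03 and 5.39 in PLA (-1.49 ± 0.53) and Ccl3 was 9.32 and 10.36 in MS and 11.30 and 10.74 in PLA (-1.18 ± 0.42). Of the 18 chemokines 4 differed by more than 0. Cxcl6 passed the study's thresholds, at 7.36 and 5.71 in MS and 5.19 and 4.74 in PLA (1.56 ± 0.65), and Ppbp, which platelets carry and which is in the platelet list too, did not (1.60 ± 0.85).

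The 3 chemokines with the lowest differences lie on chromosome 14 within 1.49 Mb, and the promoter windows of Cxcl1 and Cxcl2 together span 12.3 kb. The 250 bases before their starts in RefSeq (build GRCr8, 5′ to 3′ on the strand of the gene) are shown because they carry matches to the NF-kB consensus and, in Cxcl10, to the AP-1 motif TGANTCA, both searched on both strands and set in capitals. Ptgs2, described next, is shown beside them as a gene of similar difference with neither motif in this window.
Cxcl1 chr14:17479322-17479571, minus strand: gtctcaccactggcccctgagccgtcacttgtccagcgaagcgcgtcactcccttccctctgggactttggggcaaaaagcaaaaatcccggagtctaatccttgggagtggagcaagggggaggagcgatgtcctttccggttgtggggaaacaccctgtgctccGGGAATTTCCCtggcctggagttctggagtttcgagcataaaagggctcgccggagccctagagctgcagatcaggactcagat
Cxcl2 chr14:17467256-17467505, minus strand: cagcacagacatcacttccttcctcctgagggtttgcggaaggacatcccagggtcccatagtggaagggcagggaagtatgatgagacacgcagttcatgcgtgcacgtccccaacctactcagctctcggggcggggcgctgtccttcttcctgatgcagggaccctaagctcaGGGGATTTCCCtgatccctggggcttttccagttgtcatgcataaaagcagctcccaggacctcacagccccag
Cxcl10 chr14:15988816-15989065, plus strand: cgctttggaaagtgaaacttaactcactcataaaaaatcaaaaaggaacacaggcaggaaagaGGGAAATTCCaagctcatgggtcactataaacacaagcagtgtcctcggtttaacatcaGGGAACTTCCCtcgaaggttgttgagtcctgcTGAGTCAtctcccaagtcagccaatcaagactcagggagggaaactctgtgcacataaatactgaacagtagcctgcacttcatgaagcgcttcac
Ptgs2 chr13:64713813-64714062, plus strand: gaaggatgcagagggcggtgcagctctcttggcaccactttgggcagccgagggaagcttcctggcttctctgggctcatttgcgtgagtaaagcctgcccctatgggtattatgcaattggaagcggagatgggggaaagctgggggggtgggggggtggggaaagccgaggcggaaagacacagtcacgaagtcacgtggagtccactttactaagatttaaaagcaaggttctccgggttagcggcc
The NF-kB consensus was found in 6 of the 13 measured chemokine genes with a window, in 4 of 8 genes of the list of NF-kB subunits and inhibitors and in 0 of 14 platelet genes, and in 6.33% of all 33469 windows. The AP-1 motif was found in 2 of those 13 chemokine genes and in 6.34% of all windows. The matches of Cxcl1, Cxcl2 and the second of Cxcl10 overlap on the 2 strands and are each 1 place. A match describes these letters and is not a measured binding site.

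**Figure D1:**
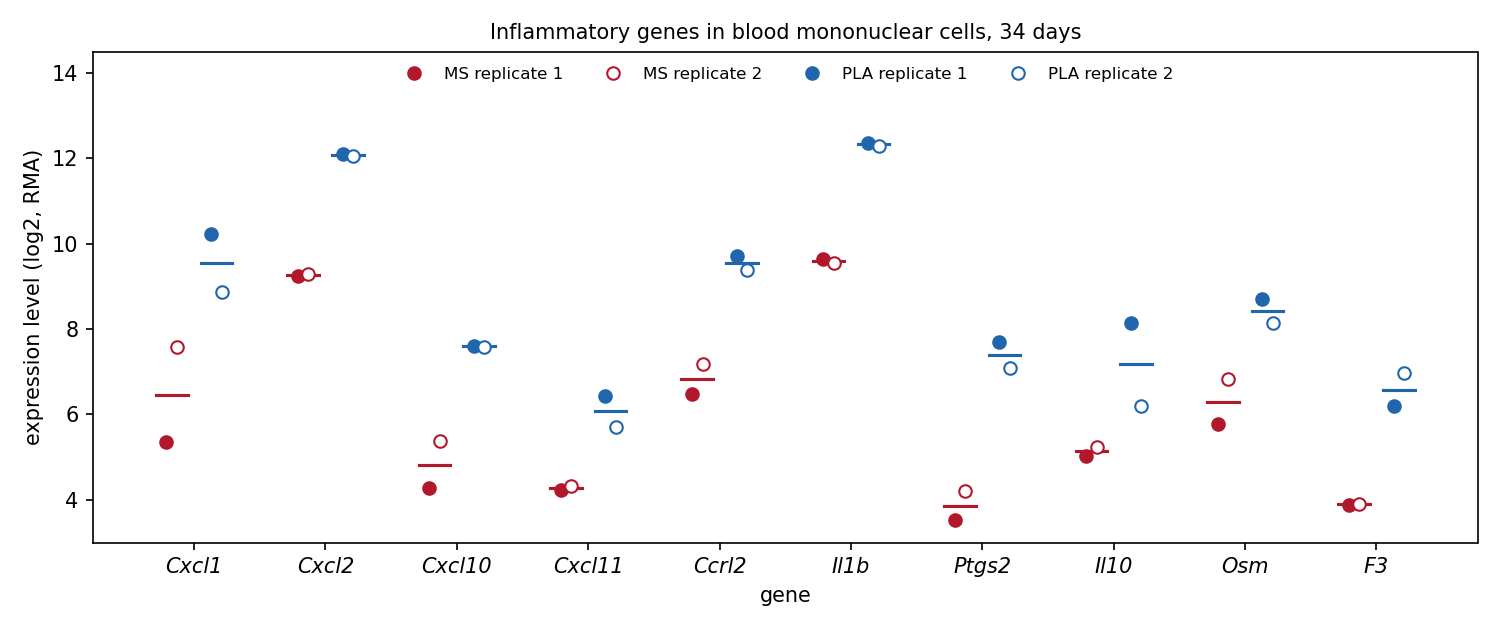
Level (log2, RMA) of 10 inflammatory genes in each MS and PLA array at 34 days; filled points are replicate 1, open points replicate 2 and bars the mean of 2. The 10 genes were picked from the lists after their values were seen; all MS points lie below the PLA points of the same gene, with the MS points of Cxcl2 at 9.23 and 9.30 below PLA points at 12.11 and 12.05.

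Single genes of other inflammatory lists, picked after their values were seen, lay as far below PLA. Of 9 chemokine receptors 2 lay lower and 0 higher at the study's thresholds, with a median of -1.31 (-1.99 in MS replicate 1 and -0.40 in MS replicate 2). Of 13 IL-6, IL-10 and STAT3 signalling genes 4 lay lower and 1 higher, with a median of -0.48. The lists of Ptgs2 and F3 were mixed. Of 13 prostaglandin and leukotriene enzymes 1 lay lower and 2 higher at the study's thresholds, with a median of -0.22, and of 12 coagulation genes 4 lay lower and 2 higher, with a median of -0.09 that quantile normalization turned to 0.02. Ptgs2, which encodes cyclooxygenase 2, was 3.52 and 4.21 in MS, against 7.70 and 7.09 in PLA. This difference of -3.53 ± 0.95, 11.5-fold, was the lowest of all 11057 genes. Both MS values lie below the array medians of 5.49 to 5.58. They may be near background, so the fold and the closeness of the MS rats are uncertain. Values of other genes below these medians may be near background too, and their folds are as uncertain. Among these are the MS values of Cxcl10, Cxcl11 and Ccl9 above and of F3, Il10, Tfec, Maff and Mmp9 below. The PLA values of Lamb1, Kdr and P2ry1 below are others. Il1b was 9.64 and 9.56 in MS, against 12.35 and 12.30 in PLA (-2.73 ± 1.04). As with Cxcl2, both MS rats held the same level and both PLA rats another. F3, tissue factor, which starts coagulation and which monocytes make on activation, was 3.88 and 3.91 in MS, against 6.20 and 6.97 in PLA (-2.69 ± 0.75). Ccrl2, an atypical receptor that binds the attractant chemerin, was 6.48 and 7.18 in MS, against 9.71 and 9.37 in PLA (-2.71 ± 0.87). Osm, oncostatin M, an IL-6 family cytokine, was 5.78 and 6.83 in MS, against 8.71 and 8.14 in PLA (-2.13 ± 0.67). Il10, whose product restrains inflammation, lay lower too, at 5.03 and 5.23 in MS and 8.14 and 6.21 in PLA (-2.04 ± 0.57), so the difference was not limited to mediators that promote it.

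The medians of the lists described next also lay below 0, and farther below in MS replicate 1. In the interleukin 1 system 4 of 13 genes lay lower and 0 higher at the study's thresholds, with a median of -0.73 (-1.19 in MS replicate 1 and -0.40 in MS replicate 2). Il1rn, the antagonist of the interleukin 1 receptor, was among them, at 6.83 and 7.82 in MS and 8.47 and 8.86 in PLA (-1.34 ± 0.62). Pycard, the adaptor of the inflammasome that matures interleukin 1 beta, lay lower by -1.11 ± 0.40, and Irak2, a kinase below the receptor, by -1.21 ± 0.37. Of 12 Tnf family genes 2 lay lower, Ltb (-1.10 ± 0.40) and the receptor Tnfrsf1b (-1.06 ± 0.43), with a median of -0.68 (-0.94 in MS replicate 1 and -0.32 in MS replicate 2). Tnf itself was 5.53 and 5.69 in MS and 6.97 and 6.79 in PLA (-1.27 ± 0.75) and did not pass, and its other probe set differed by 0.77. Among 10 NF-kB genes 3 lay lower: Nfkbiz (9.58 and 11.01 in MS, 12.07 and 12.03 in PLA), Nfkbia (11.17 and 12.70, against 13.41 and 13.36) and the adhesion molecule Icam1 (-1.39 ± 0.53). The inhibitors themselves are NF-kB targets in other systems, and a second, dimmer probe set of Nfkbiz differed by 0.43. Receptors that sense microbes showed Tlr2 at 5.56 and 7.33 in MS, against 8.90 and 8.58 in PLA (-2.30 ± 0.90), and Cd14, the co-receptor of Tlr4, at 8.87 and 10.40, against 11.58 and 11.87 (-2.09 ± 0.96). Of 10 genes of this list 3 lay lower and 0 higher, with a median of -1.27 (-1.71 in MS replicate 1 and -0.82 in MS replicate 2). Without MS replicate 1 none of the interleukin 1, Tnf, NF-kB or Toll-like receptor list members passed the study's thresholds, and the NF-kB median was -1.08 in MS replicate 1 and -0.22 in MS replicate 2.

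Immediate early genes, which respond within minutes to signals at the cell surface, lay lower as a group. Of 26 measured, 11 lay lower and 0 higher at the study's thresholds, with a median of -0.99 (-1.54 in MS replicate 1 and -0.51 in MS replicate 2) and every member below 0. Fosb, a subunit of AP-1, was 6.26 and 7.49 in MS, against 9.21 and 8.57 in PLA (-2.02 ± 0.56). Egr1, a zinc finger transcription factor, was 7.05 and 7.87 in MS, against 9.10 and 9.22 in PLA (-1.70 ± 0.43). Nr4a2, a nuclear receptor, and Dusp5, a phosphatase of the MAP kinase ERK, were nearly equal in the 2 MS rats: Nr4a2 at 6.55 and 6.69 in MS and 7.69 and 7.60 in PLA, and Dusp5 at 9.16 and 9.23 in MS and 10.45 and 10.01 in PLA. Without MS replicate 1, 3 of the 26 passed the thresholds (Egr1, Fosb and Maff). Interferon-stimulated genes were mixed: 3 of 26 lay lower and 1 higher, with a median of -0.61 (-0.89 in MS replicate 1 and -0.42 in MS replicate 2), and none passed without MS replicate 1. Ifit3 was 6.27 and 6.92 in MS, against 9.06 and 9.39 in PLA (-2.63 ± 1.13), and Ifit2, of the same family of antiviral RNA-binding proteins, differed by -2.17 ± 0.80. Of 13 glucocorticoid-response genes 0 lay higher and 2 lower.

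In the scatter of the 2 MS arrays against the PLA mean, the 10 inflammatory genes plotted by array lay far below PLA on both arrays, as they were picked to. The fixed lists lay less far below PLA in MS replicate 2, by amounts that varied. The median there was -0.40 for the interleukin 1 system, -0.22 for NF-kB genes and -0.10 for the study's inflammation list. It was -0.64 for chemokines, -0.82 for Toll-like receptors, -0.77 for natural killer and cytotoxic genes and -0.99 for neutrophil genes. Among genes lower at the study's thresholds the median distance from the PLA mean was -1.82 for MS replicate 1 and -0.55 for MS replicate 2, and only 45 of the 412 (10.9%) had MS replicate 2 alone more than 2-fold below the PLA mean. When MS replicate 1 was left out, 23 genes (0.208%) lay lower and 15 (0.136%) higher at the study's thresholds. Of the 31 lower and 26 higher probe sets of that fit, 28 and 23 also passed with both MS arrays. The lower genes held Ptgs2 (-3.18 ± 1.19), Cxcl2 (-2.78 ± 1.11), F3 (-2.67 ± 0.95), Ccrl2 (-2.37 ± 1.08), Cxcl10 (-2.21 ± 0.88), Il10 (-1.94 ± 0.72) and Cxcl11 (-1.76 ± 0.60). Il1b, at -2.77, did not pass the threshold (unadjusted limma p 0.053), nor did Cxcl1 at -1.96 (unadjusted p 0.121). With 1 MS array left its spread is assumed to be that of the other groups.

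**Figure D2:**
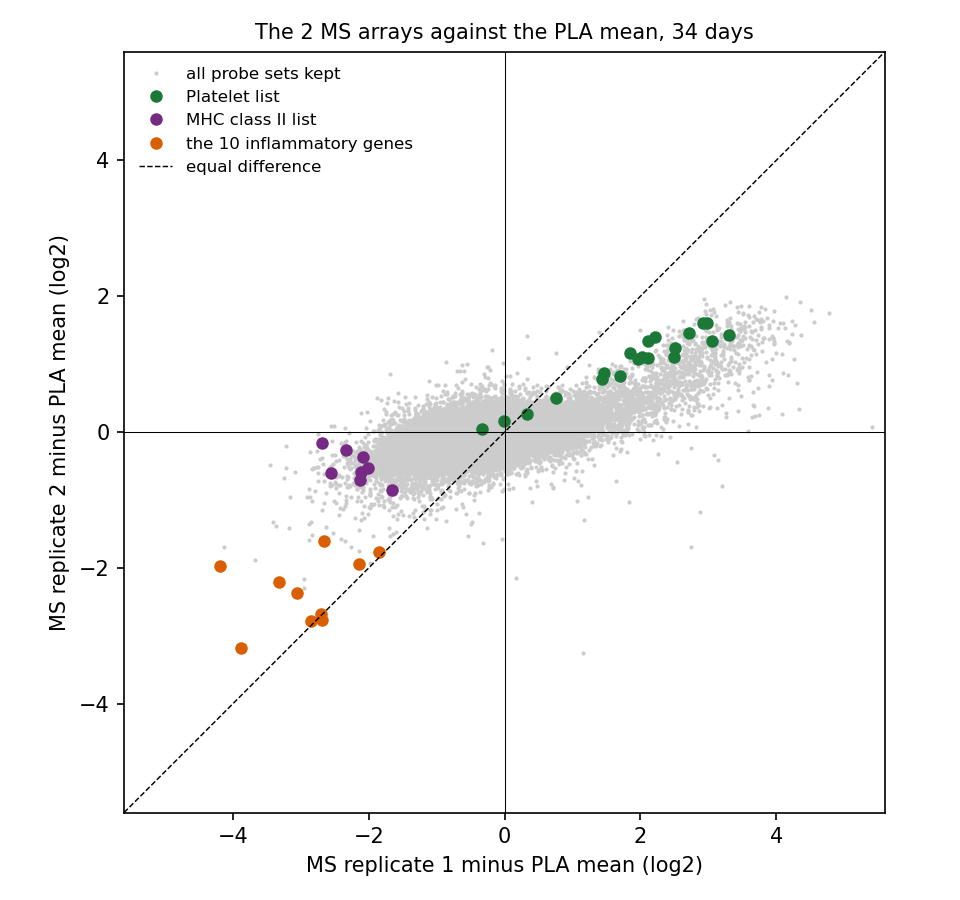
Each point is a probe set; the x axis is MS replicate 1 minus the PLA mean and the y axis MS replicate 2 minus the PLA mean (log2), with the 10 inflammatory genes, the platelet list and the MHC class II list in colour and the dashed line at equal differences. The inflammatory genes lie far below 0 on both axes, most platelet genes above 0 on both, and the MHC class II genes at a median of -2.12 on the x axis against -0.55 on the y axis.

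Platelet genes lay higher in MS, with the highest median of the 35 lists. Of 20 measured, 15 lay higher and 0 lower at the study's thresholds, 18 had MS arrays wholly above the PLA arrays, and the median difference was 1.58 (2.06 in MS replicate 1 and 1.10 in MS replicate 2). Gp5, a chain of the von Willebrand factor receptor, was 11.97 and 10.09 in MS, against 8.73 and 8.60 in PLA (2.36 ± 0.92). P2rx1 and P2ry12, the platelet receptors of ATP and ADP, differed alike: P2rx1 was 11.98 and 10.59 in MS and 9.03 and 8.96 in PLA (2.29 ± 0.78), and P2ry12 was 11.96 and 10.64 in MS and 9.10 and 8.98 in PLA (2.26 ± 0.84). Vwf, von Willebrand factor, was 12.49 and 10.77 in MS, against 9.84 and 9.02 in PLA (2.20 ± 0.78). Alox12, the platelet 12-lipoxygenase, was 12.76 and 11.50 in MS, against 9.97 and 10.11 in PLA (2.09 ± 0.78). Ptgs1, cyclooxygenase 1, which makes thromboxane precursors, was 12.66 and 11.26 in MS and 10.48 and 9.84 in PLA (1.80 ± 0.65), in the opposite direction to Ptgs2, though its second probe set differed by only 0.23. Some members differed little. Pf4, platelet factor 4, was 14.71 and 14.64 in MS, against 14.39 and 14.36 in PLA (0.30 ± 0.16), and these values are close to 15.02, the highest in the table. Sparc (0.08) and Selp (-0.14) did not differ beyond their SE of 0.19 and 0.43.

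The platelet count depended on which arrays were used. Without MS replicate 1 13 of the 20 still lay more than 2-fold above the PLA mean but 0 passed the study's thresholds. Without the 4 arrays that stood apart in the series (MS replicate 1 at 34 days, MS replicate 1, ANE replicate 1 and PLA replicate 2 at 1 hour) 11 of 20 passed, beside 206 higher (1.86%) and 50 lower (0.452%) of all genes and 336 higher (1.62%) and 76 lower (0.367%) of all probe sets. In that fit the MS differences are those of MS replicate 2 alone, as without MS replicate 1, and only the estimate of spread differs. The 4 arrays left out also had the highest mean levels of the platelet list. The count of that fit therefore says nothing more about the platelet difference. The mean level of the list, centred on all 24 arrays, was 1.36 and 0.50 in MS, against -0.36 and -0.68 in PLA, so MS replicate 2 also lay above both PLA rats. Among rats at 1 hour it reached 1.21 in the MS arm, 0.95 in PLA and 0.89 in ANE. At 34 days it was 0.48 in MTX replicate 1, close to the 0.50 of MS replicate 2, and -0.64 in MTX replicate 2. High platelet levels were thus not limited to needled rats. More platelets in the preparation and more RNA per platelet cannot be told apart in bulk samples, and the same holds for the other cell types below.

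**Figure D3:**
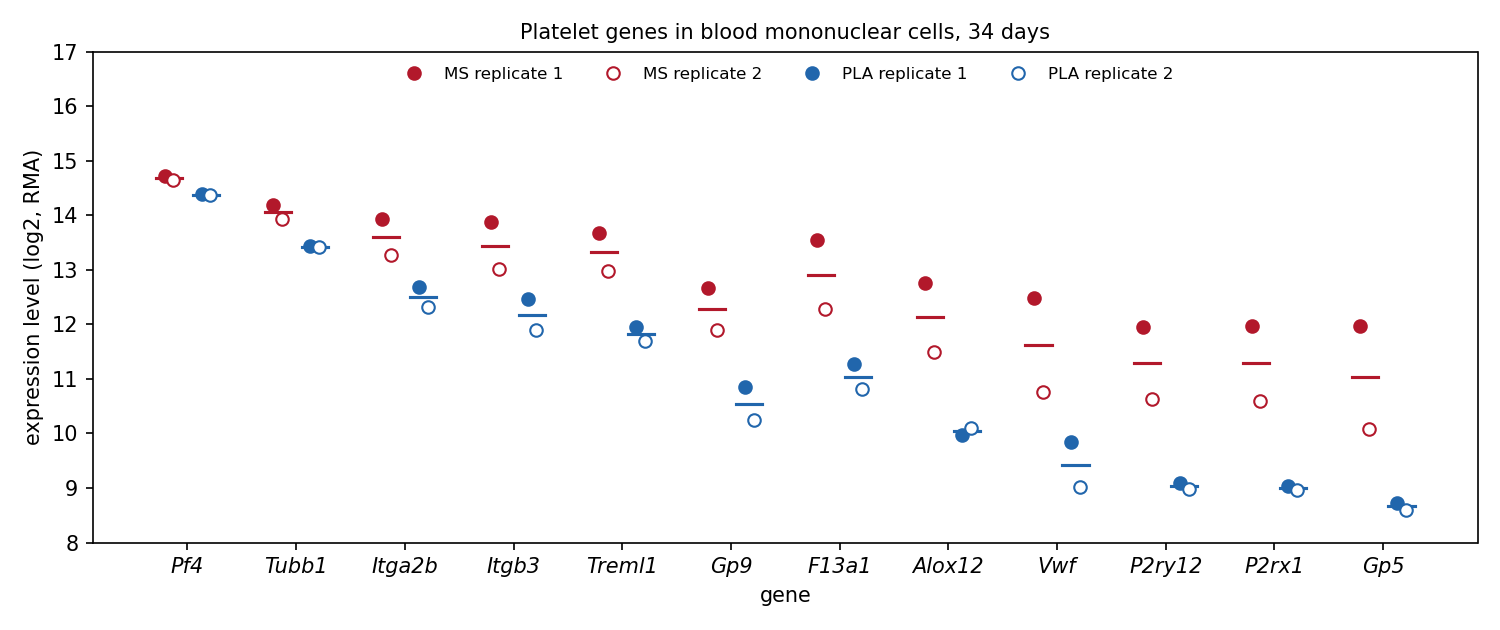
Level (log2, RMA) of 12 platelet genes in each MS and PLA array at 34 days; filled points are replicate 1, open points replicate 2 and bars the mean of 2. Both MS points lie above both PLA points for each gene shown, by a median of 1.58 over the whole list of 20, and by 0.30 for Pf4.

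The 15 higher genes described next were named by rank of the limma statistic among genes past the study's thresholds whose groups did not overlap. Both MS arrays thus lay above PLA by choice. MS replicate 1 was the farther array, as on 90.9% of all probe sets whose groups did not overlap, so this order is not particular to these genes. Pcca, which encodes the alpha chain of the mitochondrial enzyme propionyl-CoA carboxylase, had the smallest p of all probe sets. It was 9.41 and 8.30 in MS, against 6.89 and 7.13 in PLA (1.85 ± 0.28, adjusted p 0.144 by limma), and the 22 other arrays of the series lay between 6.74 and 7.59. Acad11, an acyl-CoA dehydrogenase of fatty acid breakdown, was 8.27 and 7.29 in MS, against 6.17 and 6.18 in PLA (1.61 ± 0.36). Lamb1, laminin beta 1, an extracellular matrix protein, was 9.14 and 6.42 in MS, against 4.79 and 4.47 in PLA, the highest difference of all genes (3.15 ± 0.75). Its PLA values may be near background, so the size of this difference is uncertain. Kdr, the main receptor of vascular endothelial growth factor, was 7.83 and 6.47 in MS, against 5.05 and 4.78 in PLA (2.23 ± 0.50). Slc18a2, a vesicle transporter of monoamines that loads serotonin into platelet granules, was 9.75 and 7.68 in MS, against 5.87 and 6.18 in PLA (2.69 ± 0.69), and its other probe sets differed by 2.46 and 2.31. Serpini1, neuroserpin, an inhibitor of tissue plasminogen activator, was 10.69 and 9.70 in MS, against 7.77 and 8.33 in PLA (2.14 ± 0.51). C1galt1, which builds the core of mucin-type sugar chains, differed by 1.67 ± 0.41 and Pnpla8, a phospholipase, by 1.86 ± 0.48. The others of the 15 named by rank were LOC102554603 (1.15), Cnrip1 (2.04), Cttnbp2nl (2.63), Tigd2 (1.66), Tmem71 (1.02), Odf1 (1.19) and Prss35 (3.07). Whether the platelet share had a part in these differences was not tested.

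Purinergic genes, of interest because ATP released by mechanical stress is broken down to adenosine, lay on both sides of PLA. Of 17 measured, 5 lay higher and 0 lower at the study's thresholds, against 0 higher without MS replicate 1 and 2 without the 4 arrays that stood apart. Of the 5, P2rx1 and P2ry12 are in the platelet list as well, and P2ry1, the other ADP receptor of platelets, was 7.05 and 4.60 in MS, against 3.56 and 3.65 in PLA (2.22 ± 0.67). Panx1, the channel through which cells release ATP, was 9.33 and 7.70 in MS, against 6.91 and 6.74 in PLA (1.69 ± 0.52), and Adk, adenosine kinase, differed by 1.68 ± 0.64. Nt5e, the enzyme that forms adenosine outside the cell, lay the other way, at 6.78 and 6.68 in MS and 7.34 and 7.43 in PLA (-0.65 ± 0.27). Hypoxia and glycolysis genes had a median of 0.20, with 2 of 17 higher (1 without MS replicate 1): Egln3, an oxygen-sensing prolyl hydroxylase, at 10.16 and 8.02 in MS and 6.36 and 6.44 in PLA (2.69 ± 0.78), and Bnip3, a mitochondrial protein that hypoxia induces, at 9.14 and 8.27 in MS and 6.43 and 7.04 in PLA (1.97 ± 0.55).

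Genes of antigen presentation and of lymphocytes lay lower in MS, mainly in MS replicate 1. All 8 measured MHC class II genes had MS arrays below both PLA arrays, and 7 passed the study's thresholds, with a median of -1.32 (-2.12 in MS replicate 1 and -0.55 in MS replicate 2). Ciita, the master activator of this locus, was 5.65 and 6.44 in MS, against 7.26 and 7.34 in PLA (-1.25 ± 0.29), though its second probe set differed by only -0.28. Cd74, the invariant chain, was 11.56 and 13.28 in MS, against 13.78 and 13.51 in PLA (-1.23 ± 0.39), so MS replicate 2 lay close to the PLA arrays. RT1-Db1, a class II beta chain, was 9.52 and 10.95 in MS, against 11.95 and 11.35 in PLA (-1.42 ± 0.38). None of the 8 passed the thresholds without MS replicate 1.

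Natural killer and cytotoxic genes lay lower in 9 of 20 and higher in 0, with a median of -1.21 (-1.53 in MS replicate 1 and -0.77 in MS replicate 2). Il2rb, a receptor chain for interleukins 2 and 15, was 7.22 and 7.58 in MS, against 8.92 and 8.57 in PLA (-1.34 ± 0.53), and Faslg, which triggers death of target cells, was 7.46 and 7.63 in MS, against 8.99 and 8.75 in PLA (-1.32 ± 0.52). Both were nearly equal in the 2 MS rats. Gzmb, granzyme B, was 8.72 and 9.43 in MS, against 11.17 and 10.57 in PLA (-1.79 ± 0.75), and Ncr1, an activating receptor of natural killer cells, differed by -1.75 ± 0.55. Without MS replicate 1 none of the 20 passed the thresholds.

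T cell genes lay lower mainly in MS replicate 1. Of 19 measured 5 lay lower, with a median of -0.89 that was -1.45 in MS replicate 1 and -0.17 in MS replicate 2. Cd3e, a chain of the T cell receptor complex, was 9.74 and 11.31 in MS, against 11.53 and 11.45 in PLA (-0.96 ± 0.42). The same held for ribosomal protein genes, which every cell uses: the 20 measured had a median of -0.67, made of -1.28 in MS replicate 1 and -0.09 in MS replicate 2, and none reached a 2-fold difference. Among monocyte genes 7 of 21 lay lower and 1 higher, with a median of -1.22 (-2.05 and -0.40). The defining gene Cd14 was given above, and Csf1r, the receptor of the monocyte growth factor, was 9.33 and 9.66 in MS, against 10.37 and 10.04 in PLA (-0.71 ± 0.33). In MS replicate 2 the monocyte list thus differed from the PLA mean by -0.40 at the median, while Il1b differed by -2.77 and Cxcl2 by -2.78. The part of the monocyte share in the lower inflammatory genes was not tested. Neutrophil genes, which a density gradient should mostly remove, had a median of -1.20 (-1.70 and -0.99) with 1 of 10 past the thresholds. That gene was Mmp9, a gelatinase, at 5.36 and 5.09 in MS and 6.33 and 6.41 in PLA (-1.14 ± 0.28), though its other probe set differed by only -0.40. Of 13 liver and 10 red cell genes 0 lay lower and 1, the red cell gene Xk, higher.

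**Figure D4:**
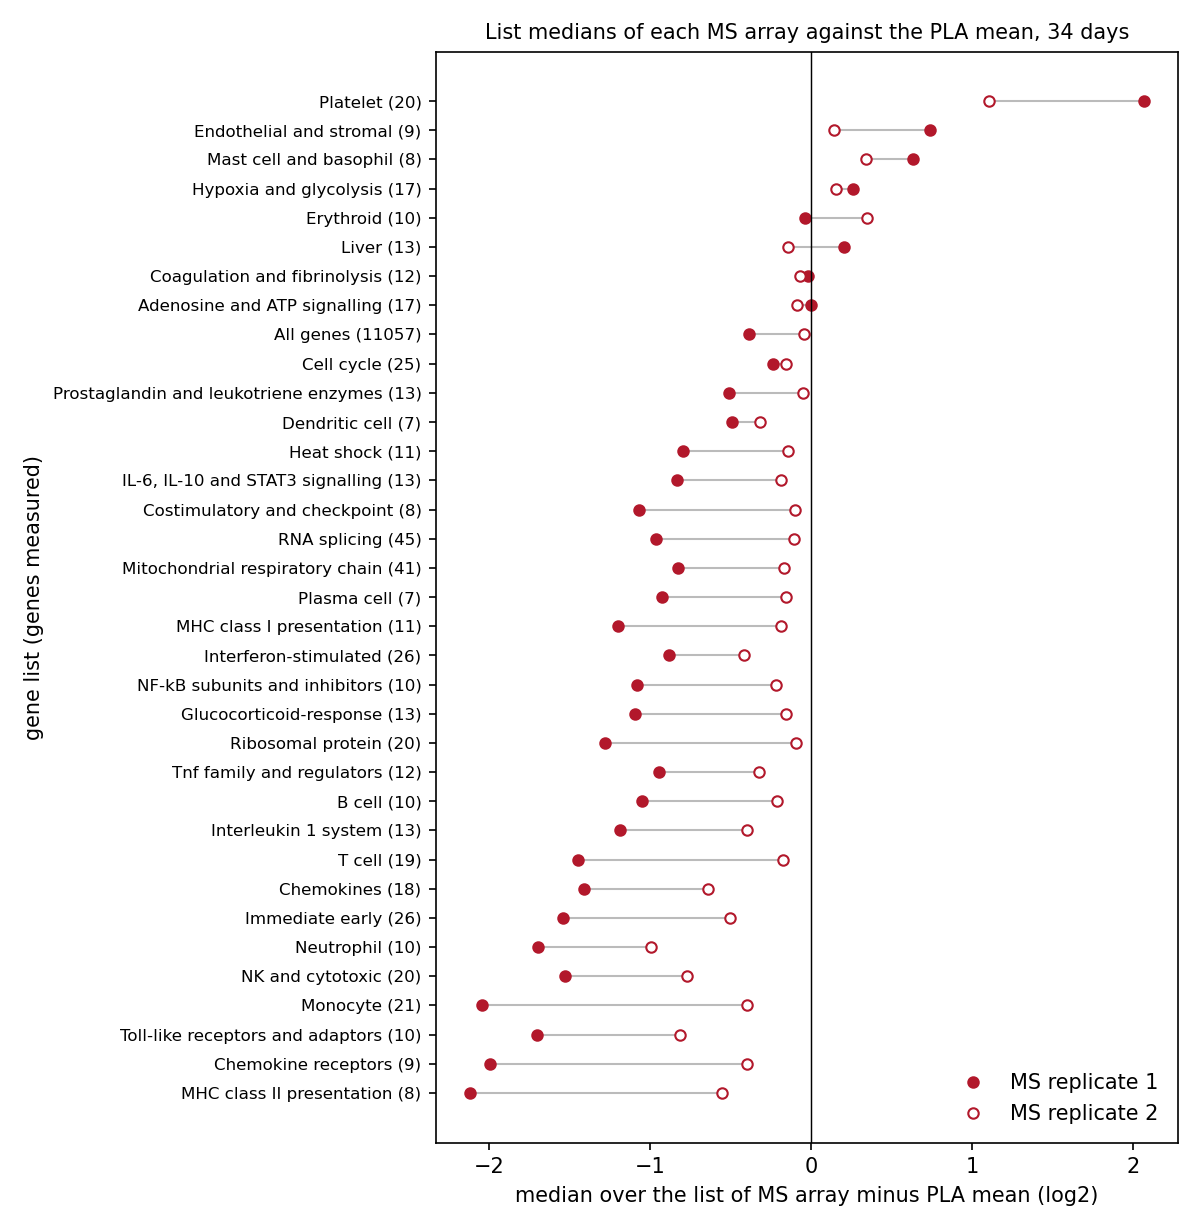
Median over each fixed gene list of the difference between 1 MS array and the PLA mean at 34 days (log2, x axis), for MS replicate 1 (filled) and MS replicate 2 (open); the number of genes measured stands in brackets. Platelet genes lie at 2.06 and 1.10, T cell genes at -1.45 and -0.17, ribosomal protein genes at -1.28 and -0.09, and all genes at -0.39 and -0.05.

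The 15 lower genes described next were named by rank, which is set by the limma statistic among genes past the study's thresholds whose groups did not overlap. Bcl2a1, an inhibitor of apoptosis that NF-kB induces, was 9.03 and 9.87 in MS, against 11.52 and 11.36 in PLA (-1.99 ± 0.45). Cflar, which blocks caspase 8, was 7.92 and 8.43 in MS, against 9.62 and 9.37 in PLA (-1.32 ± 0.33), though its second probe set differed by only -0.33. Tfec, a transcription factor of the macrophage lineage, was 3.78 and 4.29 in MS, against 5.29 and 5.51 in PLA (-1.36 ± 0.28, and -0.88 on its other probe set), and Maff, a small Maf protein, was 4.75 and 5.44, against 6.65 and 6.24 (-1.35 ± 0.34). The last 3 had almost no difference between MS and ANE rats (-0.36, -0.08 and -0.14 for Cflar, Tfec and Maff), so for them the difference was to the PLA rats and not to the ANE rats. Fcrla, a B cell protein related to Fc receptors, was 5.01 and 6.91 in MS, against 8.10 and 7.65 in PLA (-1.91 ± 0.44, and -0.98 on its brighter probe set), and Fcmr, the receptor of IgM, was 7.81 and 9.16 in MS, against 10.06 and 9.84 in PLA (-1.47 ± 0.36). The others were Sdhaf4 (-1.43), Crip2 (-1.13), Ciita and Mmp9 (above), Prkar2a (-1.06, with another probe set at 0.62), Mtfr1 (-1.21), Slamf9 (-1.43), Prr5l (-1.55) and Rcbtb2 (-1.04).

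The study examined wound healing and mechanical response after therapy with 7 lists from literature and Gene Ontology, 1 of them for inflammation. It tested enrichment among genes changed from before to after therapy, in PBMC and subcutaneous tissue, with microRNAs and a second experiment. Here only MS minus PLA in PBMC at 34 days is described, without an enrichment test. The values below are thus not a repeat of the study's tests. The medians of these lists lay between -0.29 and 0.13, with members on both sides of PLA, against a median of -0.22 over all genes. The wound healing list (whGO) had a median of 0.04 over 224 genes, with 34 higher and 14 lower at the study's thresholds (15.2% and 6.25% of the list, against 5.61% and 3.73% of all genes). The response to wounding list (rwGO) had 50 higher and 29 lower of 427 (11.7% and 6.79%) and a median of -0.08. The epithelial to mesenchymal transition list (EMT) had 26 higher and 10 lower of 196 (13.3% and 5.10%), and its median of -0.01 changed sign to 0.01 with quantile normalization. Its subset EMT.T2 had 9 higher and 3 lower of 58 (15.5% and 5.17%), the list of early mechanotransduction (Mec.E) 5 higher and 2 lower of 36 (13.9% and 5.56%), and the list of early healing (Heal.E) 7 higher and 4 lower of 61 (11.5% and 6.56%). The inflammation list (InflGO) had more members lower than higher, with 19 higher and 33 lower of 308 (6.17% and 10.7%). Its higher share was close to that of all genes, and its median of -0.29 was close to their -0.22. The lists share members with one another and with the platelet list: of the genes past the thresholds on the higher side, 9 of 34 in the wound healing list and 10 of 50 in the response to wounding list are platelet list members. Without MS replicate 1 no member of the 7 lists lay higher at the thresholds. Members that lay lower were found in the wound healing, response to wounding and EMT lists as well as in the inflammation list. The medians of MS replicate 2 against the PLA mean were 0.02 for wound healing, -0.05 for response to wounding and -0.04 for EMT. The inflammation list had -0.10 and all genes -0.05.

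Whether the difference between MS and PLA had changed since the first hour of therapy was tested as an interaction. No probe set passed the adjusted p (smallest 0.688, limma), 1066 had an unadjusted p under 0.05, and 165 (0.797%) lay higher and 364 (1.76%) lower at the study's thresholds. These counts turned on single arrays: they were 1501 and 2960 without MS replicate 1 at 1 hour, and 93 and 104 without MS replicate 1 at 34 days. At 1 hour Il1b was 10.64 and 11.81 in MS and 10.74 and 11.81 in PLA, and Ptgs2 was 5.69 and 7.67 in MS and 5.00 and 7.49 in PLA, so the groups overlapped for both. Their 34-day differences exceeded the 1-hour ones by -2.68 ± 1.47 and -3.96 ± 1.35. Cxcl1 was already lower in MS at 1 hour, at 7.17 and 8.94 in MS and 9.92 and 11.64 in PLA, and its interaction was -0.35 ± 1.45. P2ry12 at 1 hour was 11.69 and 9.20 in MS and 9.08 and 11.13 in PLA, so each group held 1 rat with a high platelet level. Among the 5 genes named on each side, Pcca lay higher (1.69 ± 0.40) and Cflar lower (-2.10 ± 0.47) at 34 days relative to 1 hour.

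Set against the other arthritic arms of the same day, Cxcl2, Il1b and Ptgs2 of MS rats differed less from MTX than from ANE rats, a contrast that was not tested. List medians went both ways: chemokines differed by -0.34 from MTX and -0.74 from ANE, and immediate early genes by -0.62 from MTX and -0.56 from ANE. Against MTX no probe set passed the adjusted p (smallest 0.0935, limma), and 560 (2.71%) lay higher and 234 (1.13%) lower at the study's thresholds, against 11 and 19 without MS replicate 1 and 59 and 130 without MTX replicate 2. Cxcl2 was 9.23 and 9.30 in MS, 9.26 and 10.85 in MTX, 10.94 and 11.88 in ANE, and 12.11 and 12.05 in PLA. Its differences were -0.79 ± 0.88 to MTX and -2.15 ± 0.88 to ANE, with adjusted p of 0.576 and 0.16 (limma). Il1b was 9.64 and 9.56 in MS, 9.71 and 11.08 in MTX, 10.27 and 11.84 in ANE, and 12.35 and 12.30 in PLA. Ptgs2 in MS lay below every rat of the other arms: it was 3.52 and 4.21 in MS, 5.11 and 6.02 in MTX, 6.35 and 7.81 in ANE, and 7.70 and 7.09 in PLA. In the arthritic rats sampled before therapy Il1b was 8.92 and 8.69 and Ptgs2 5.05 and 4.75, nearer to the MS than to the PLA values at 34 days. These 2 genes were picked, and the day of sampling differs. At 34 days the mean centred level of the interleukin 1 list was 0.24 and 0.09 in healthy rats. It was 0.27 and 0.36 in PLA and -0.79 and -0.33 in MS. For the prostaglandin and leukotriene list it was -0.16 and 0.03 in healthy rats, 0.07 and 0.12 in PLA and -0.34 and -0.01 in MS.

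Against ANE, 113 probe sets passed the adjusted p (0.546%), of which 18 rose (0.087%) and 95 fell (0.459%) in MS, and 809 (3.91%) lay higher and 1019 (4.93%) lower at the study's thresholds. B cell genes were prominent among those that fell, with 5 of 10 measured members. Ms4a1, which encodes CD20, was 6.70 and 8.17 in MS, against 9.68 and 10.32 in ANE (-2.56 ± 0.41, adjusted p 0.0269). Pou2af1, a B cell coactivator of transcription, was 7.07 and 7.40 in MS, against 8.82 and 9.58 in ANE (-1.96 ± 0.28, adjusted p 0.0184). Cd79b, a chain of the B cell receptor, fell by 1.90 ± 0.36, Fcer2, the low-affinity receptor of IgE, by 2.05 ± 0.38 and Fcrla by 1.89 ± 0.30. Fcmr, Glce (heparan sulfate epimerase) and Bcl11a (a transcription factor of B cell development) were also among the 5 named on the lower side. Ciita fell too (-2.05 ± 0.29, adjusted p 0.0184), as did Jchain, which joins IgA and IgM units (-1.62 ± 0.30), and Mmp9 (-1.61 ± 0.28). Those named on the higher side were Serpini1 (2.68 ± 0.51), Bcas3 (2.41 ± 0.51), Pcca (2.07 ± 0.28), Ddit3 (2.01 ± 0.35), a transcription factor of the stress response, and Tigd2 (1.97 ± 0.40). ANE also differs from MS in the anaesthetic at sampling, which cannot be told apart from the needle. The count of 113 became 0 without MS replicate 1, 2 without ANE replicate 1, 1 without ANE replicate 2, 18 without the 4 arrays that stood apart, and 0 in a fit of the 2 groups alone. Ms4a1 in PLA lay between, at 8.97 and 8.75, and its difference of MS to PLA was -1.43 ± 0.41, the lowest of 10 B cell genes, of which 2 lay lower and 0 higher at the study's thresholds.

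**Figure D5:**
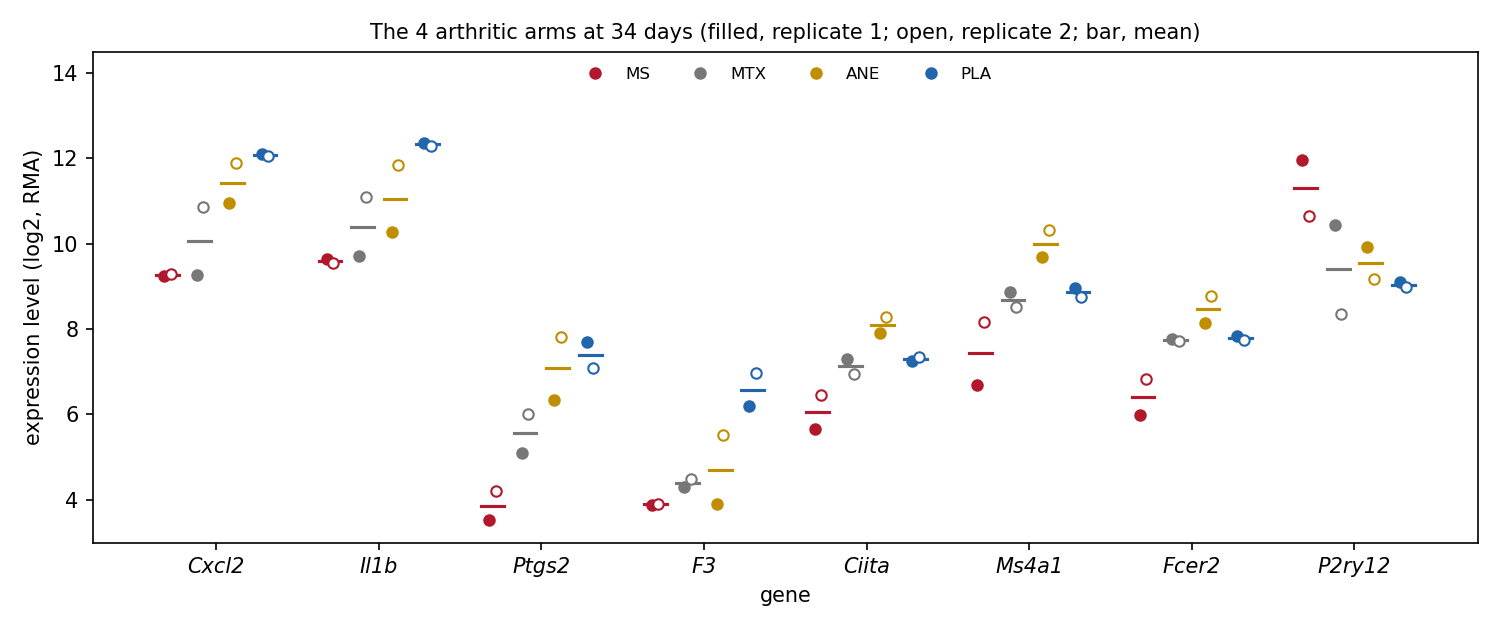
Level (log2, RMA) of 8 genes in the 4 arthritic arms at 34 days, in the order MS, MTX, ANE and PLA; filled points are replicate 1, open points replicate 2 and bars the mean of 2. Ptgs2 is lowest in MS at 3.52 and 4.21, F3 is highest in PLA at 6.20 and 6.97, and the B cell genes Ms4a1 and Fcer2 are highest in ANE.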

How the data were processed

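RNA of PBMC was hybridised to Affymetrix rat expression arrays, 1 rat an array, after extraction in a single batch per the labels. The authors deposited RMA values on the log2 scale, background-corrected and normalised across arrays; the version is not given in the sources used here, and the study's methods also describe MAS5, which was not used here. A probe set was kept if it exceeded the array's 40th percentile on 2 or more arrays (20690 kept, without 57 control probe sets), and genes were named from the platform annotation where a probe set has 1 symbol (20832). limma 3.58.1 (R 4.3.3) was fitted with a coefficient per group over 24 arrays (12 residual df), with Benjamini-Hochberg adjustment. It was also run on simulated data in which all groups had the same spread, independent between probe sets. That setting leaves out an array far from its replicate, so it does not test the counts given here. The SE and p-values rest on a spread per probe set shared by the 12 groups, so most of it comes from rats of other groups. The 2 MS arrays were farther apart than the 2 PLA arrays (SD of their difference 0.84 against 0.28), which a shared spread does not allow for. With the 2 groups fitted alone, 1393 probe sets had an unadjusted limma p under 0.05, against 4795. Only 2 rats a group limit the precision. The members, the 35 gene lists and the tests were chosen with earlier results of these data known. Genes were named by rank of the limma statistic among those past the study's thresholds whose groups do not overlap (15 each way, 5 in the other comparisons), beside members of the lists at their brightest probe set. Genes picked for a figure or outside this rule were chosen after their values were seen. Alternatives were the replicate block, the filter, quantile normalisation, robust limma-trend, array weights, the groups compared alone, leaving out each array, and leaving out 4 arrays that stood apart.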

Additional observations from a re-analysis of the deposited data

How the results depend on the processing

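The count of probe sets past the adjusted p between MS and PLA was 0 under the other filters, quantile normalisation, robust limma-trend, array weights and the fit of the 2 groups alone, and lay between 0 and 8114 when 1 array was left out (8114 without MS replicate 2). At the study's thresholds the 1101 higher and 629 lower probe sets became 1203 and 512 with quantile normalisation, 735 and 378 with only the groups compared, 782 and 404 with array weights, and 336 and 76 without the 4 arrays that stood apart. At the study's thresholds 1 array left out also moved the other comparisons: MS against ANE gave 117 higher and 215 lower without MS replicate 1, against 809 and 1019. Past the adjusted p, the interaction count lay between 0 and 396 with 1 array left out (396 without MS replicate 2 at 34 days, 1 without PLA replicate 1 at 1 hour) and was 3 without the 4 arrays. MS against MTX lay between 0 and 7177 (7177 without MS replicate 2, 1 without MTX replicate 1). MS against ANE, 113 as reported, was 75 with the replicate block, 0 with only the groups compared, 360 with quantile normalisation, 0 with array weights, 18 without the 4 arrays and between 0 and 7363 with 1 array left out. The cause was not tested. The labels do not say that a replicate number pairs rats, and each group has only 2. The difference of replicate 1 and 2 in MS correlated over probe sets by 0.12 with that in PLA, 0.51 with MTX and 0.32 with ANE. The replicate block left 0 probe sets past the adjusted p between MS and PLA. The median over all genes was -0.22, and -0.12 with quantile normalisation, -0.05 without MS replicate 1 and -0.39 without MS replicate 2. The 549 values of named genes under the alternatives all kept their direction, 45 of them over 1.5 times smaller. For the genes named by rank this was largely fixed in advance. They were chosen with groups that do not overlap, so leaving out 1 array cannot reverse them. The replicate block, the filters and the fit of the 2 groups alone leave a gene's difference unchanged. The kept direction is therefore no test of these genes. Of 252 list medians 244 kept their direction. The other 8 belong to lists with medians near 0: coagulation (0.02 with quantile normalisation, 0.22 without PLA replicate 2), EMT (0.01 with quantile normalisation and near 0 with all probe sets averaged), eosinophil (0.16 without PLA replicate 1), erythroid (-0.19 without PLA replicate 1, -0.04 without MS replicate 2) and liver (-0.14 without MS replicate 1).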

Other observations

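Beyond the inflammatory genes described above, the probe sets past the study's thresholds without MS replicate 1 held genes from outside the lists, chosen here after their values were seen. Batf, a transcription factor of activated lymphocytes, was 8.51 and 9.60 in MS, against 7.90 and 8.46 in PLA, so MS replicate 2 was the farther array. Metrnl, a secreted protein of activated monocytes and other cells, differed by -1.41 and G0s2, an inhibitor of fat breakdown, by -2.16 when MS replicate 1 was left out. Gypc, a membrane protein of red cells, differed by 1.51 in the same fit.

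Mast cell and basophil genes had a median of 0.50 in MS relative to PLA, with 1 of 8 higher at the study's thresholds. Cpa3, the mast cell carboxypeptidase, was 6.97 and 7.06 in MS, against 5.83 and 5.35 in PLA, with the 2 MS rats nearly equal. The GAPDH control probe sets at the 3′ end read 14.08 and 13.67 in MS, against 13.13 and 13.08 in PLA, and those at the 5′ end 13.94 and 13.55 in MS, against 13.08 and 13.07 in PLA.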
